A study of Mus musculus with 4 samples.

Results

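Basal cells are the layer of the vaginal epithelium that sits on the basement membrane, and those of mice with intact ovaries are described here. They were chosen cell by cell from single-cell counts of unique molecular identifiers (UMIs, each standing for 1 captured transcript). A cell needed at least 200 detected genes, at most 20% of its UMIs from mitochondrially encoded genes and at least 3 UMIs summed over Col17a1, Gap43 and Il1r2. It could hold at most 1 UMI summed over the 6 differentiation genes Krt10, Krt6b, Krt1, Krt13, Krt4 and Sprr1a, at most 1 over 10 genes of G2 and mitosis and at most 1 over 10 genes of S phase. The rule found 710 cells, 14.3% of the 4966 cells kept from intact mice and 8.41% of the 8446 cells kept from all libraries. The libraries were made by Drop-seq, a droplet method for single cells, from C57BL/6 vaginal epithelium freed with pronase. There were 2 libraries from surgically ovariectomised mice, named OVX, and 2 from mice with ovaries, named WT. Each library pooled 5 mice. The sources used here give neither their age nor the time since surgery nor the cycle stage of the WT mice. It is unclear whether the duplicate libraries of a group came from separate pools. The p-values rest only on variation between libraries, pooled in part over genes, and this variation may be technical.

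Vaginal epithelium is a stratified epithelium whose thickness and cornification depend on ovarian oestrogen and progesterone. Its basal cells attach to the basement membrane through hemidesmosomes, plaques in which the integrin alpha6-beta4 and the collagen Col17a1 bind laminin outside the cell and plectin and Bpag1 (Dst) inside it. They carry the keratins Krt5 and Krt14 and the transcription factor Trp63 (p63), divide, and give rise to suprabasal cells that lose these attachments and make a cornified layer.

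In WT library 1 the basal cells numbered 456, or 15.3% of the cells kept (95% exact binomial interval 14.0% to 16.7%), and in WT library 2 they numbered 254, or 12.8% (11.3% to 14.3%). These intervals cover counting error only. The members held 650553 UMIs in library 1 and 228705 in library 2, with medians of 1258 and 806 UMIs per cell and of 4.21% and 3.88% mitochondrial UMIs. Levels below are UMIs per 1000000 UMIs of the cells summed (CPM). They come from transcript ends and are not divided by transcript length, so they are not compared between genes. Wherever 2 values are given for a group, the first is from its library 1 and the second from its library 2. The WT libraries shared 6 cell barcodes, and 2 members of library 1 had a barcode also present in library 2. The 4 libraries held between 991112 and 5845107 UMIs over 10000 deposited barcodes. No doublet caller was applied, so cell pairs remain in the data, and 3 members were among the 5% of cells with the most UMIs in their library.

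The 3 genes of the rule chose the cells, so their levels are a description without a test. Col17a1 (chromosome 19, 47646344 to 47692094, minus strand, GRCm38) is the transmembrane collagen of the hemidesmosome. It gave 2745 and 1622 CPM in the basal cells, from 1786 and 371 UMIs. Il1r2 (chromosome 1, 40074079 to 40125231), a decoy receptor that binds interleukin-1 without signalling, gave 2201 and 2763 CPM. Gap43 (chromosome 16, 42248442 to 42340651, minus strand), a protein of growing axon ends, gave 527 and 1132 CPM. The median sum of the 3 genes was 7 UMIs per member in library 1 and 4 in library 2, with maxima of 28 and 20. Among the genes that kept cells out, Krt10 was at 63.0 and 122 CPM in the basal cells.

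Just inside the marker threshold, 62 and 72 cells had a sum of exactly 3. Just outside it, 49 and 110 cells had a sum of 2 with every other criterion met. Igfbp2, which the rule did not use, was at 1111 and 1448 CPM in the cells at 3 and at 652 and 1487 CPM in those at 2. Trp63 was at 494 and 241 CPM in the cells at 3 and at 352 and 355 CPM in those at 2. Cells with a differentiation sum of 1 numbered 134 and 67, and their Krt6a level was 2803 and 2335 CPM. Cells with a sum of 2, outside the threshold, numbered 41 and 23, with Krt6a at 3399 and 3281 CPM. Cells with a mitosis sum of 1 numbered 118 and 54 inside, and 47 and 12 had a sum of 2 outside. For S phase there were 163 and 62 cells with a sum of 1 inside and 77 and 22 with a sum of 2 outside.

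The name basal was checked against 8 markers outside the genes of the rule. In both libraries 8 of 8 were higher in the basal cells than in differentiated cells, and 7 of 8 were higher than in all other WT cells. The exception was Krt15, a keratin of basal cells in other stratified epithelia, at 533 and 617 CPM in the basal cells against 779 and 1060 CPM in the other WT cells. Trp63 was at 593 and 498 CPM in the basal cells. Krt15 was the 1 marker of the 8 that went against the name in one of these comparisons.

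Markers of other cell types were mostly low in the basal cells. The luminal, T or NK and smooth muscle sums were nonetheless higher than in the other WT cells of both libraries. The 6 fibroblast markers, the 4 measured neutrophil markers and the 1 measured melanocyte marker were all at 0 UMIs in both libraries. The 9 myeloid markers summed to 7.69 and 30.6 CPM in the basal cells, with Cd74, Fcer1g and Lyz2 at 0 in both libraries. The 4 smooth muscle markers summed to 4.61 and 8.74 CPM, the 3 measured endothelial markers to 9.22 and 26.2 CPM, the 2 measured erythroid markers to 0 and 4.37 CPM, and the 3 measured Schwann or neuron markers to 40.0 and 30.6 CPM. The 5 T or NK markers summed to 70.7 and 83.1 CPM with Cd3e, Cd3g, Cd3d and Nkg7 at 0, so that these UMIs were all of Trbc2. The 7 luminal markers summed to 453 and 472 CPM in the basal cells against 509 and 374 CPM in the differentiated cells, with Krt18, Pigr and Ltf at 0 in the basal cells. In the other WT cells the luminal sum was 409 and 379 CPM. There the T or NK sum was 66.0 and 81.1 CPM and the smooth muscle sum 2.70 and 8.23 CPM. Suprabasal markers were present, at a sum of 2138 and 3708 CPM over 8 genes in the basal cells against 12665 and 17369 CPM in the differentiated cells. The rule genes Krt10, Krt1 and Krt6b are among these 8, so the choice of cells fixed part of this difference in advance.

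Keratin UMIs were also present in cells of another type. Myeloid-like cells, taken as cells with at least 5 UMIs over Cd74 and 3 class II genes, numbered only 11 and 7 in the WT libraries, with median depths of 995 and 527 UMIs. They held Krt14 at 10365 and 7739 CPM, Krt6a at 2832 and 0 CPM, and Il1r2 at 963 and 1173 CPM. Other basal genes were present too, with 4 and 3 UMIs of Col17a1, Gap43 at 113 and 469 CPM and Sparc at 56.6 and 235 CPM (1 UMI each). Lamb3, Trp63 and Igfbp2 gave 2, 2 and 3 UMIs in library 1 and 0 in library 2, and Itga3, Itgb4 and Thbs1 gave 0 in both, out of totals of only 17655 and 4264 UMIs. Whether these UMIs came from RNA free in the droplets or from cell pairs, and how much either adds to the levels of the basal cells, was not tested.

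The cycle criteria removed many cells that carried the basal markers. The marker sum reached 3 in 1750 cells of library 1, or 58.7% of the cells kept, and in 590 cells of library 2, or 29.7%. The differentiation criterion left 1267 and 452 of them. Of these, 811 (64.0%) in library 1 and 198 (43.8%) in library 2 had 2 or more UMIs over the S phase genes or the mitosis genes and were left out. The cells left out were deeper, with median UMIs of 1927 and 1259, against 1258 and 806 in the members. Reaching 2 UMIs is easier in a deeper cell, so these shares are not read as shares of dividing cells. The part of depth in them was not tested.

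**Figure D1:**
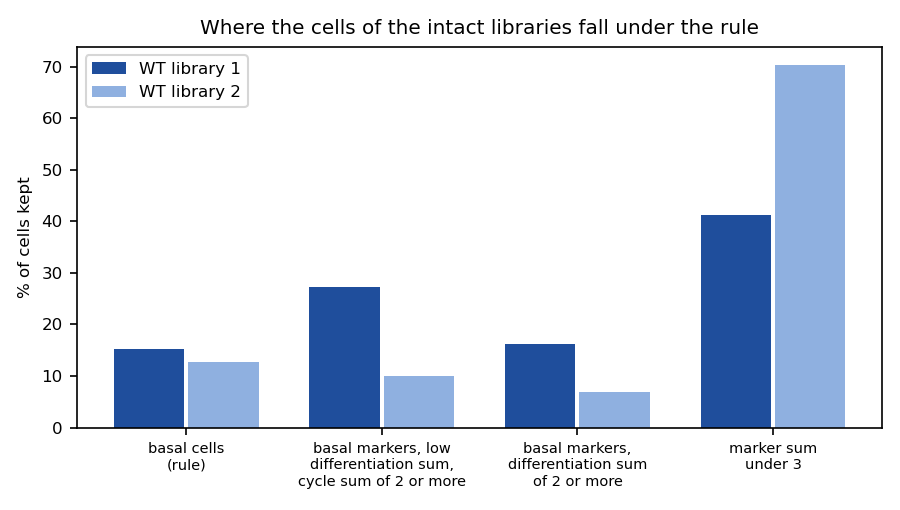
Share of the cells kept (%, vertical axis) in each class of the rule, for WT library 1 (dark bars) and WT library 2 (light bars). The basal cells made up 15.3% and 12.8%, while cells with basal markers and 2 or more cycle UMIs made up 27.2% and 10.0%.

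The basal cells were compared with differentiated cells of the same 2 libraries, to describe what else sets the basal layer apart. Differentiated cells had at least 3 UMIs over the 6 differentiation genes, at most 1 over Col17a1, Gap43 and Il1r2 and the same cycle limits, and numbered 392 and 301 with median depths of 1446 and 806 UMIs. The basal cells carried more RNA for nearly all measured parts of the hemidesmosome and its laminins, for matrix proteins such as Thbs1 and Sparc, for IGF binding proteins and for hormone-linked genes such as Pgr and Greb1. They carried less RNA for suprabasal keratins, cornified envelope proteins and the transcription factors that go with them. Counts were summed per library and class and tested with edgeR, with the library as a block, over 6487 genes without the 29 genes of the rule. The block took out differences in level between the libraries, so these p-values rest on how the class difference varied between the 2 libraries. That variation was moderated towards a value shared over genes, with 22 prior degrees of freedom. At an adjusted p under 0.05, 1007 genes (15.5% of those tested) differed, 500 higher in basal cells (7.71%) and 507 lower (7.82%), with a median log2 fold change of -0.03 over all genes tested. The 2 classes were drawn from opposite ends of the rule's sums. Genes that follow those sums from cell to cell therefore had to differ, and the test speaks only to the mean difference over the 2 libraries. For 16 of the 1007 called genes the difference in CPM did not have the fitted sign in both libraries. With no library term in the fit 0 genes passed (376 at an unadjusted p under 0.05, edgeR), and DESeq2 with the library term called 210. The basal and differentiated levels did not overlap for 28.6% of the genes tested, and the difference had the same sign in both libraries for 62.9%. Of 108 called genes named for this comparison, 21 lost the call in at least 1 other edgeR fit with the library term. These were Krt14, Krt15, Krt17, Krtdap, Tfap2c, Tcf4, Jag1, Nrarp, Id3, Ltbp4, Erbb3, Il1f9, Calm2, Efnb1, Marcksl1, Rbp2, Rdh12, Dsc3, Pkp1, Slc16a1 and Hk2. In DESeq2 with the library term, 42 of the 105 named genes with an adjusted p lost the call. Genes outside the 21 were among these 42, such as Dlk2, Phldb2, Wfdc18, Arg1, Sprr2d, Pgr, Wnt4 and Igf1r.

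**Figure D2:**
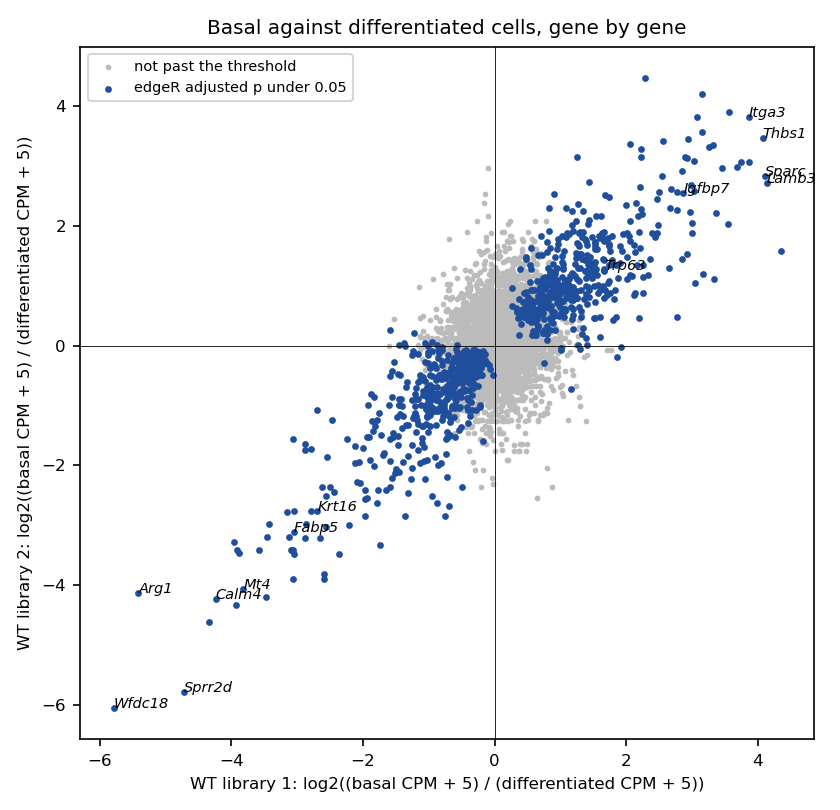
Each point is 1 of 5240 genes with at least 50 UMIs, placed by its log2 ratio of basal over differentiated cells in WT library 1 (horizontal axis) and in WT library 2 (vertical axis), with 5 CPM added to each level. The 900 blue points had an edgeR adjusted p under 0.05 and run along the diagonal from Wfdc18 to Itga3 and Thbs1.

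Attachment genes were higher as a group. Of the 15 hemidesmosome and basement membrane genes tested, 13 were higher in basal cells and 0 lower, with a median log2 fold change of 2.31. Cd151 and Dag1 did not pass. Itga3 (chromosome 11, 95044474 to 95076801, minus strand), the integrin subunit that pairs with Itgb1 to bind laminins, gave 67.6 and 65.6 CPM in basal cells against 0 and 0 CPM in differentiated cells. From 59 UMIs against 0, it was at least 21.1-fold higher, taking 3 counts over both differentiated libraries as the floor (edgeR adjusted p = 3.63e-07). No differentiated library held a UMI of it.

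The 2 chains of the hemidesmosome integrin were both higher. Itga6 was at 595 and 289 CPM in basal cells against 150 and 76.1 CPM in differentiated cells (log2 fold change 1.88 ± 0.15, SE; edgeR adjusted p = 9.08e-10). Itgb4 (chromosome 11, 115974709 to 116008412) was at 135 and 280 CPM against 16.8 and 41.5 CPM in differentiated cells, a log2 fold change of 2.78 ± 0.27 (adjusted p = 2.95e-08). The groups did not overlap for either chain, although library 1 had the higher level of Itga6 and library 2 that of Itgb4. Itgb1, the partner of Itga3, was at 888 and 516 CPM in basal cells against 232 and 159 CPM in differentiated cells (log2 1.78 ± 0.13).

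Laminin-332, the ligand of both integrins, has Lama3 and Lamb3 among its chains. Lamb3 (chromosome 1, 193207699 to 193343878) was at 218 and 232 CPM in basal cells against 7.64 and 31.1 CPM in differentiated cells (log2 fold change 3.79 ± 0.31, edgeR adjusted p = 2.31e-09). Lama3 differed by a log2 fold change of 2.44 ± 0.30. Lama5, the alpha chain of other basement membrane laminins, was at 89.2 and 43.7 CPM in basal cells against 3.06 and 6.92 CPM in differentiated cells (log2 3.96 ± 0.50). Lama3, Lamb3 and Lama5 were thus higher in basal cells. Col7a1, which forms the anchoring fibrils beneath the laminin, was at 289 and 280 CPM in basal cells against 33.6 and 27.7 CPM in differentiated cells (log2 3.07 ± 0.22). On the inner face, Dst was at 1994 and 634 CPM in basal cells against 598 and 180 CPM in differentiated cells (log2 1.66 ± 0.10), and Plec at 244 and 258 CPM against 85.6 and 100 CPM (log2 1.37 ± 0.18).

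**Figure D3:**
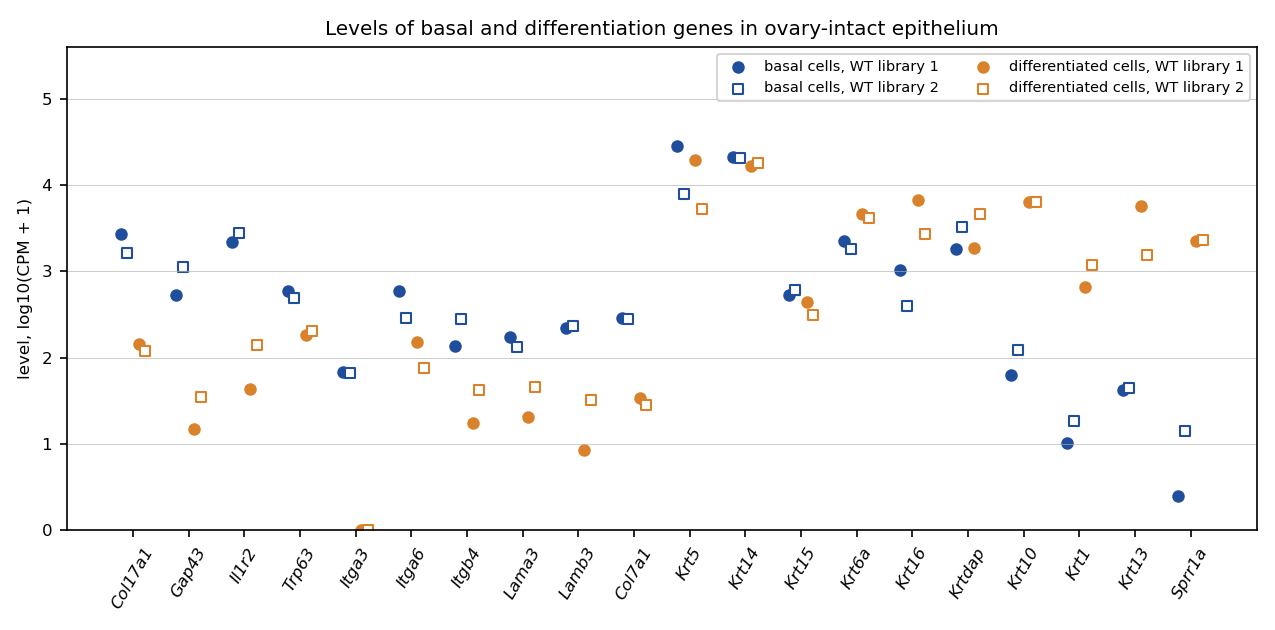
Levels of 20 genes, as log10(CPM + 1), in basal cells (blue, left of each pair) and differentiated cells (orange) of WT library 1 (filled circles) and WT library 2 (open squares). Integrin and laminin genes such as Itga3 and Lamb3 lie higher in basal cells in both libraries, while Krt5 and Krt14 nearly coincide between the classes within a library. Col17a1, Gap43, Il1r2, Krt10, Krt1, Krt13 and Sprr1a belong to the rule.

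Matrix genes had the largest median of the 24 lists. Of 7 extracellular matrix and protease genes tested, 5 were higher and 0 lower, with a median log2 fold change of 3.06. Thbs1 (chromosome 2, 118111876 to 118127133), thrombospondin 1, was at 234 and 433 CPM in basal cells against 9.17 and 34.6 CPM in differentiated cells (log2 fold change 4.01 ± 0.26, edgeR adjusted p = 2.89e-11). Sparc (chromosome 11, 55394500 to 55423183, minus strand), a collagen-binding matrix protein, was at 426 and 350 CPM against 19.9 and 45.0 CPM in differentiated cells (log2 3.76 ± 0.23; adjusted p = 1.7e-11). The groups did not overlap for either gene. Col12a1, Col18a1 and the matricellular gene Cyr61 were also higher, by log2 fold changes of 3.69, 2.80 and 3.06. Agrn, the heparan sulphate proteoglycan agrin, was at 106 and 223 CPM in basal cells against 6.11 and 17.3 CPM in differentiated cells (log2 3.77 ± 0.34).

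Other genes with the largest differences came from outside the lists. Dlk2, a relative of the Notch ligands, was at 53.8 and 70.0 CPM in basal cells and 0 and 0 CPM in differentiated cells, at least 18.2-fold higher against the same floor. Pltp, the phospholipid transfer protein, gave 59 UMIs in basal cells and 1 in differentiated cells, a ratio of levels of 63.3 (95% counting interval 10.9 to 2542). Phldb2, which tethers microtubules near basal adhesions, gave 70 UMIs and 2 UMIs (ratio 37.5, interval 10.0 to 316). Emp3 gave 43 UMIs in basal cells and 2 in differentiated cells (ratio 23.1, interval 6.01 to 197), and Popdc3 45 and 2 (ratio 24.1, interval 6.31 to 205). Sncg, gamma-synuclein, was at 138 and 144 CPM in basal cells against 6.11 and 13.8 CPM in differentiated cells (log2 3.91 ± 0.35). All of these passed the edgeR threshold and were higher in both libraries. S100a6, a calcium-binding protein, was among the most abundant transcripts of the basal cells and was at 6376 and 8325 CPM in them against 1209 and 2272 CPM in differentiated cells (log2 2.06 ± 0.09).

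The basal keratins differed little beside these genes. All 4 tested, Krt5, Krt14, Krt15 and Krt17, were higher in basal cells, with a median log2 fold change of 0.43. Krt14 was at 21371 and 20402 CPM in basal cells against 16464 and 18074 CPM in differentiated cells (log2 fold change 0.19 ± 0.06, edgeR adjusted p = 0.0380). Krt5 was at 28221 and 7827 CPM against 19366 and 5333 CPM in differentiated cells (log2 0.46 ± 0.06; adjusted p = 5.17e-06). Within each library the basal value of Krt5 was the higher, but across libraries the groups overlapped. The level of Krt5 was 3.61 times as high in library 1 as in library 2 among basal cells, 3.63 times among differentiated cells and 3.69 times among the other WT cells. The myeloid-like cells held Krt5 at 6854 and 3049 CPM, and the part of RNA from other cells in these levels was not tested. Krt15 and Krt14 lost the call under some other settings, with adjusted p-values up to 0.810 for Krt15 (basal cells with at least 5 marker UMIs) and 0.0631 for Krt14 (RLE size factors) in edgeR fits with a library term.

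Differentiation genes were lower in basal cells. Of 21 suprabasal and cornified genes tested, 0 were higher and 19 lower in basal cells, with a median log2 fold change of -1.86, and Lgals7 and Serpinb2 did not pass. The rule had removed cells with more than 1 UMI over 6 genes of this kind, so the direction is no finding. Fabp5, a fatty acid binding protein of differentiating keratinocytes, was at 427 and 651 CPM in basal cells against 3573 and 5689 CPM in differentiated cells (log2 fold change -3.18 ± 0.09, edgeR adjusted p = 6.48e-18). Krt16 was at 1030 and 394 CPM against 6702 and 2694 CPM in differentiated cells (log2 -2.81 ± 0.09). Mt4, the metallothionein of stratified epithelia, was at 64.6 and 56.8 CPM against 977 and 1024 CPM in differentiated cells (log2 -4.07 ± 0.15). The groups did not overlap for these 3 genes.

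Some differentiation genes stayed abundant in the basal cells. Krt6a was at 2243 and 1819 CPM in basal cells against 4586 and 4178 CPM in differentiated cells (log2 -1.19 ± 0.08). Krtdap, a secreted differentiation peptide, was at 1834 and 3292 CPM against 1856 and 4610 CPM in differentiated cells (log2 -0.33 ± 0.09), with overlapping groups. With every exclusion sum at 0 its log2 fold change was -0.14 (edgeR adjusted p = 0.520). Lgals7, galectin-7, was at 5435 and 12890 CPM in basal cells against 4825 and 10974 CPM in differentiated cells (adjusted p = 0.278). Krtdap in the myeloid-like cells was at 1416 and 2580 CPM.

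The genes with the largest differences downwards included several with no UMI in any basal cell. Wfdc18 gave 0 UMIs in basal cells and 271 in differentiated cells, at least 84.2-fold lower against the floor of 3 counts over both basal libraries. Arg1, arginase 1, gave 0 and 160 UMIs (at least 49.7-fold lower), and Sprr2d, a cornified envelope protein, 0 and 161 UMIs. Adgrf4, Ly6g6e and Lrmp were likewise at 0 in basal cells and at least 18.6-, 18.0- and 15.5-fold lower. The membrane serine protease Tmprss11d gave 1 UMI in basal cells and 118 in differentiated cells, and Gabrp, a GABA receptor subunit, gave 2 and 61. Teddm3 gave 2 and 115 UMIs, but 33.5% of the 50-base words at its transcript end also occur in other genes, so its reads are uncertain. Calm4, a calmodulin-like protein of epidermis, was at 9.22 and 21.9 CPM in basal cells against 263 and 501 CPM in differentiated cells (log2 -4.76 ± 0.26).

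Transcription factors also went both ways. Of 19 tested, 3 were higher in basal cells and 11 lower, with a median log2 fold change of -0.74. Trp63 (chromosome 16, 25683763 to 25892102), the factor on which stratified epithelia depend, was at 593 and 498 CPM in basal cells against 183 and 204 CPM in differentiated cells (log2 fold change 1.47 ± 0.14, edgeR adjusted p = 1.85e-08). Tfap2c and Tcf4 passed the threshold with log2 fold changes of 0.75 ± 0.25 and 1.06 ± 0.35, and both lost it with RLE size factors (adjusted p = 0.0610 and 0.0591). Zfp750, which drives terminal differentiation downstream of p63, was at 27.7 and 21.9 CPM in basal cells against 173 and 142 CPM in differentiated cells (log2 -2.74 ± 0.27). Grhl1, a grainyhead factor of barrier formation, gave 2 UMIs in basal cells and 39 in differentiated cells, 18.2-fold lower (95% counting interval 4.71 to 155).

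Hormone-linked genes were higher in the basal cells. Of 7 steroid receptors and oestrogen targets tested, 5 were higher and 0 lower, with a median log2 fold change of 1.26. Pgr, the progesterone receptor and an oestrogen target in the reproductive tract, was at 283 and 131 CPM in basal cells against 101 and 72.6 CPM in differentiated cells (log2 fold change 1.26 ± 0.18, edgeR adjusted p = 1.96e-05). Greb1, growth regulation by oestrogen in breast cancer 1, was at 125 and 109 CPM against 27.5 and 17.3 CPM in differentiated cells (log2 2.19 ± 0.29; adjusted p = 4.08e-06). Both genes were higher in basal cells without overlap. Fkbp5, a target of glucocorticoid and progesterone receptors, was higher by 1.57 ± 0.37 on the log2 scale. Esr1, the oestrogen receptor, was at 135 and 74.3 CPM in basal cells and 93.3 and 69.2 CPM in differentiated cells, and did not pass (log2 0.34; adjusted p = 0.364).

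IGF binding proteins were among the clearest basal genes. Of 5 genes of the IGF list tested, 4 were higher and 0 lower (median log2 fold change 1.83). Igfbp2 (chromosome 1, 72824503 to 72852474), which is on the hormone list too, was at 1700 and 1635 CPM in basal cells against 382 and 550 CPM in differentiated cells (log2 fold change 1.83 ± 0.11, edgeR adjusted p = 1.5e-11). Igfbp7 was at 433 and 306 CPM against 55.0 and 48.4 CPM in differentiated cells (log2 2.79 ± 0.18). Igfbp3 was at 267 and 61.2 CPM against 19.9 and 3.46 CPM in differentiated cells (log2 3.66 ± 0.29). All 3 secreted proteins bind IGFs outside the cell. Igf1r, the receptor for IGF1, was at 78.4 and 52.5 CPM in basal cells against 30.6 and 27.7 CPM in differentiated cells (log2 1.14 ± 0.32).

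Signalling ligands and receptors showed a mixed picture. Of 11 Wnt pathway genes tested, 5 were higher and 0 lower (median 1.02). The ligand Wnt10a was at 98.4 and 96.2 CPM in basal cells against 7.64 and 6.92 CPM in differentiated cells (log2 3.58 ± 0.39; edgeR adjusted p = 3.2e-07), and the ligand Wnt4 at 364 and 136 CPM against 136 and 72.6 CPM (log2 1.23 ± 0.17). The others that rose were Dkk3, a secreted member of the Dickkopf family, the receptor Fzd10 and the R-spondin receptor Lgr4, by 3.66, 1.28 and 1.02 on the log2 scale. Of 6 Notch pathway genes, 1 was higher and 3 lower (median -0.81). The ligand Jag2 was at 93.8 and 87.4 CPM in basal cells against 6.11 and 0 CPM in differentiated cells (log2 4.27 ± 0.49), while the ligand Jag1 and the targets Hes1 and Nrarp fell by 0.83, 0.79 and 1.57 on the log2 scale. Jag1 and Nrarp lost the call with every exclusion sum at 0 (edgeR adjusted p = 0.0764 and 0.0928) and with cells thinned to 500 UMIs (adjusted p = 0.149 and 0.0852). The receptor Notch1 did not pass (log2 0.11).

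Of 11 TGF-beta and BMP pathway genes, 4 were higher and 1 lower (median 1.13). The ligand Tgfb2 was at 275 and 267 CPM in basal cells against 84.1 and 131 CPM in differentiated cells (log2 1.37 ± 0.18), and the BMP target Id3 rose by 1.64 while Id1 fell by 1.51. The latent TGF-beta binding protein Ltbp1 was at 33.8 and 48.1 CPM in basal cells against 6.11 and 0 CPM in differentiated cells, and Ltbp4 rose by 1.41. Of 4 EGF family genes, the feedback inhibitor Errfi1 was higher and the receptor Erbb3 lower (median -0.47). The chemokine Cxcl14 was at 204 and 227 CPM in basal cells against 15.3 and 45.0 CPM in differentiated cells (log2 3.01 ± 0.28), 1 of 2 chemokines and cytokines tested. With Il1r2 a gene of the rule, 0 of the 4 other interleukin-1 family genes tested were higher and 3 were lower (median -1.11). The alarmin Il33 was at 131 and 96.2 CPM in basal cells against 480 and 401 CPM in differentiated cells (log2 -2.01 ± 0.15). Il1f9 and Casp1 fell by 1.06 and 1.17.

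Other axon growth and neural genes had calls in both directions. Of 12 tested beside Gap43, 4 were higher and 2 lower in basal cells, with a median log2 fold change of 0.07. Sema3c, a secreted axon guidance protein, was at 189 and 114 CPM in basal cells against 15.3 and 6.92 CPM in differentiated cells (log2 3.59 ± 0.31; edgeR adjusted p = 6.95e-09). Calm2, which encodes calmodulin, a protein that Gap43 binds, rose by 0.54 on the log2 scale, and Efnb1, an ephrin, by 1.03. Marcks and Marcksl1, membrane proteins that bind calmodulin as Gap43 does, fell by 1.11 and 1.03.

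Retinoid genes went both ways, with 3 of 8 higher and 3 lower (median 0.20). Lrat, which esterifies retinol for storage, was at 125 and 127 CPM in basal cells against 10.7 and 58.8 CPM in differentiated cells (log2 2.21 ± 0.35; edgeR adjusted p = 5.38e-05). Rdh12, a retinol dehydrogenase, rose by 0.67. The retinoic acid binding protein Crabp2 averaged 159 ± 2.82 CPM in basal cells against 742 ± 56.5 CPM in differentiated cells (SD, n = 2; log2 -2.27 ± 0.13). Rbp2 and Dhrs3 fell by 1.00 and 1.83.

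Genes of other cell contacts had calls in both directions. Of 14 desmosome and adherens junction genes, 3 were higher and 6 lower (median -0.45). The basal cells had more of the desmosomal cadherins Dsg2 and Dsc3, by 1.65 and 0.56 on the log2 scale. The plaque protein Jup was at 200 and 389 CPM in basal cells against 466 and 889 CPM in differentiated cells, and the plaque proteins Dsp and Pkp1 fell by 0.81 and 0.54. Cdh13, T-cadherin, was at 115 and 87.4 CPM in basal cells against 10.7 and 3.46 CPM in differentiated cells (log2 3.52 ± 0.38). Of 11 tight and gap junction genes, 2 were higher and 4 lower (median -0.51). Cldn4, a tight junction claudin, gave 0 and 0 CPM in basal cells and 24.5 and 51.9 CPM in differentiated cells, at least 9.63-fold lower. The connexin Gja1 was at 1191 and 844 CPM in basal cells against 634 and 595 CPM in differentiated cells (log2 0.68 ± 0.10), while the connexin Gjb2 was at 89.2 and 65.6 CPM against 254 and 301 CPM (log2 -1.78 ± 0.19).

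Growth and metabolic lists held calls in both directions. Of 15 genes of G1 and growth control, 4 were higher and 4 lower (median 0.06). Ccnd1, cyclin D1, was at 337 and 380 CPM in basal cells against 147 and 89.9 CPM in differentiated cells (log2 1.35 ± 0.17), and the growth arrest gene Gas1 rose by 2.41. The CDK inhibitors Cdkn2b and Cdkn1a fell by 3.19 and 0.78. Of 14 S phase and mitosis genes outside the rule, 3 were higher and 2 lower (median 0.32), within cells chosen for few cycle UMIs. Rrm1, a subunit of ribonucleotide reductase, was at 203 and 175 CPM in basal cells against 56.6 and 93.4 CPM in differentiated cells (log2 1.42 ± 0.22).

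Of 15 glycolysis genes 4 were higher and 1 lower (median -0.03). The glucose transporter Slc2a1 was at 484 and 459 CPM in basal cells against 113 and 201 CPM in differentiated cells (log2 1.66 ± 0.17; edgeR adjusted p = 5.79e-08), and the lactate transporters Slc16a1 and Slc16a3 rose by 0.92 and 2.11. Hexokinase 2, Hk2, fell by 1.56. Of 18 oxidative stress genes 6 were higher and 6 lower (median 0.08), among them Gclm, a subunit of the enzyme that starts glutathione synthesis, which rose by 1.38, and the glutathione transferase Gsta4, which fell by 2.54. Cholesterol synthesis had 1 of 17 genes higher and 5 lower (median -0.59). The AP-1 and immediate early list had 2 of 11 higher and 2 lower (median 0.04). Of 12 progenitor and surface markers 3 were higher and 4 lower (median -0.22), with Ly6a (Sca-1) at 501 and 608 CPM in basal cells against 235 and 294 CPM in differentiated cells and Epcam at 59.9 and 52.5 CPM against 229 and 149 CPM.

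**Figure D4:**
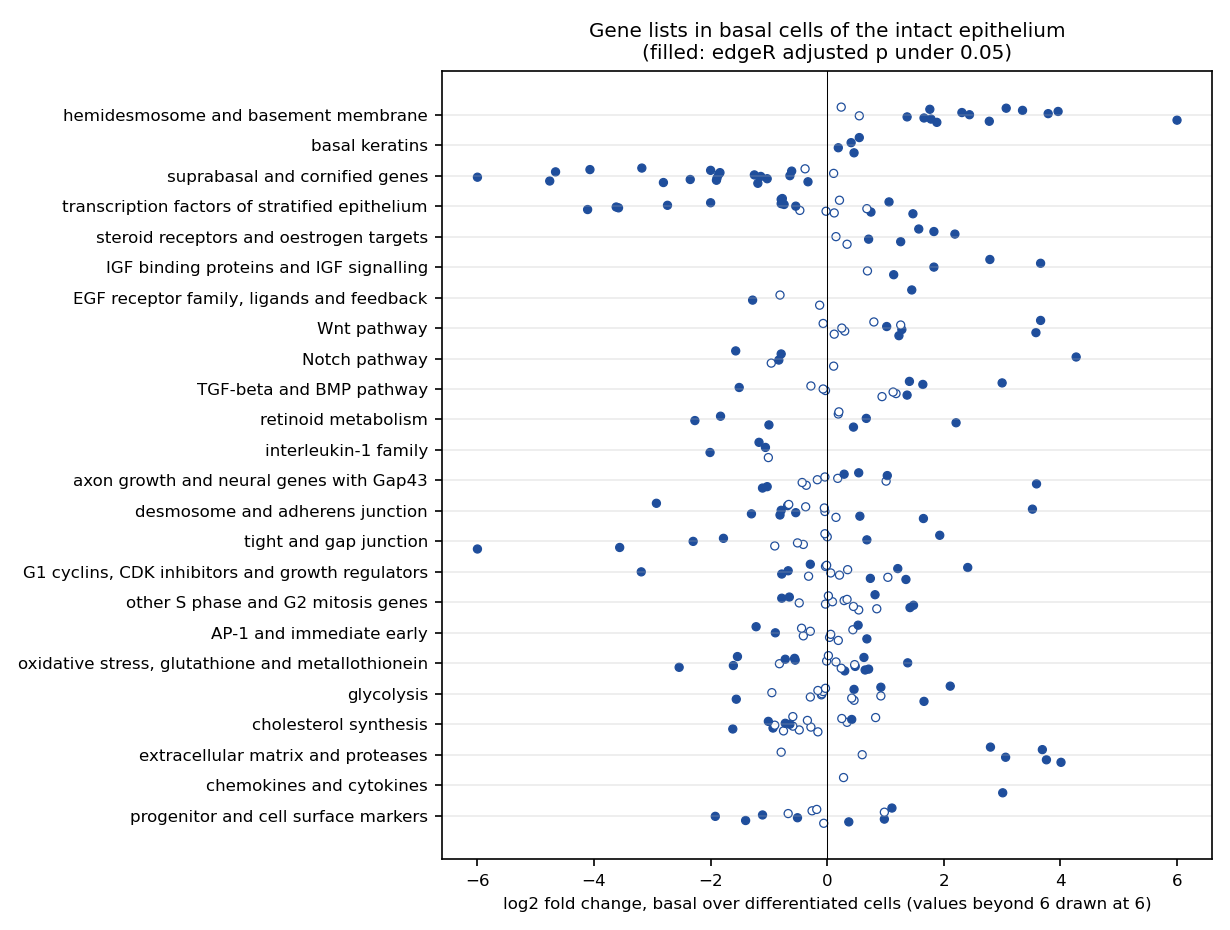
Each point is 1 tested gene of a list, placed by its edgeR log2 fold change of basal over differentiated cells (horizontal axis), with values beyond 6 in size drawn at the edge. Filled points passed an adjusted p of 0.05. The hemidesmosome list (13 of 15 higher) and the matrix list (5 of 7 higher) lie to the right, and the suprabasal list (19 of 21 lower) lies to the left.

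Variation among the basal cells was ranked for the more abundant transcripts only. Each member was thinned to 500 UMIs, which kept 456 and 234 cells, and the variance of each gene's count was divided by its mean. This was done for the 617 genes with a mean of at least 0.1 UMIs per thinned cell in both libraries. The ratio can also rise with the mean, so the abundance of the genes ranked first is no finding. The median of this ratio was 1.05 in library 1 and 1.03 in library 2, where counting alone gives about 1. The mitochondrial ribosomal RNA mt-Rnr2 stood first, at 5.24 and 4.75. BC100530, a member of the stefin A family of protease inhibitors, followed at 3.02 and 2.64, although 41.5% of the 50-base words at its end also occur in other genes. The nuclear RNA Malat1 was at 2.75 and 4.25. By the mean of the ranks in the 2 libraries Krt16 came next, at 2.24 and 1.94. The keratin Krt15 (1.50 and 2.03) and the surface protein Ly6d (1.69 and 1.71) tied behind it, followed by Krtdap (1.48 and 2.26) and by Krt14 (1.93 and 1.53) and Krt5 (2.03 and 1.50), which also tied. The metallothionein Mt2 (1.51 and 1.50) shared the 10th place with Spink5, a protease inhibitor of stratified epithelia, at 3.35 and 1.34.

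The 2 WT libraries also differed from each other within the basal cells. Of 3867 genes with at least 10 UMIs in the members of both, 47.4% had levels within 1.5-fold and 1071 (27.7%) differed by over 2-fold. Tmem64 gave 104 UMIs in library 1 and 1 in library 2, Yap1, a transcriptional coactivator of the Hippo pathway, 101 and 1, and Ubn1 58 and 1. These genes were picked for the largest ratios of library 1 to library 2, at 36.6, 35.5 and 20.4 in the basal cells. In the other WT cells the ratios were smaller, at 8.56, 4.08 and 2.65. In the other direction Gm2000 was at 161 CPM in library 1 and 1526 CPM in library 2, and Ppia gave 13 and 59 UMIs. The ends of Gm2000 and Ppia share 85.1% and 54.7% of their 50-base words with other genes, so their counts are uncertain. The median longest transcript measured 4569 bases for the 388 genes over 2-fold higher in library 1, 1500 bases for the 683 higher in library 2 and 2880 bases for the rest. The same order, 4656, 1460 and 2842 bases, held in differentiated cells, so the length relation was not confined to the basal cells. The part of transcript length in the differences between libraries was not tested.

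Basal cells of ovariectomised mice were compared with those of intact mice, to describe how the basal layer differs without ovaries. The rule could not serve for this, since Gap43 and Il1r2 were nearly absent in OVX: it passed only 12 and 101 OVX cells. A gate without them was used in all 4 libraries, which asked for at least 3 UMIs over a set of hemidesmosome and laminin genes that included Col17a1, Itga6, Itgb4, Lamb3, Lama3 and Dst, kept the limits on differentiation and cycle sums, and allowed at most 1 UMI over Krt8 and Krt18 and at most 1 over 6 immune and fibroblast genes. It gave 91 and 443 OVX cells and 509 and 205 WT cells, and 80.6% of the WT members passed it. OVX basal cells had much less RNA for oestrogen-linked genes such as Igfbp2, Pgr and Greb1, for the keratins Krt5, Krt14, Krt6a and Krt16, for retinol storage and for the glucose transporter Slc2a1. They had more for Timp3 and the flavin monooxygenase Fmo2. Il33 and Epcam were called higher too, but not under all settings. Il33 lost the call in 9 of 10 other edgeR fits of the same design and Epcam in 1 of 8. Among the genes named as lower, Pgr lost it in 2 of 10 such fits, and Krt5, Krt14 and Slc2a1 in 1 of 10 each.

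By edgeR, 166 of 5334 genes tested (3.11%) passed an adjusted p of 0.05, 79 higher in OVX (1.48%) and 87 lower (1.63%), with a median log2 fold change of -0.04 over all genes tested. For 44.7% of the genes tested both OVX libraries lay on the same side of both WT libraries. The groups differed in ways that touch all of these genes. The median mitochondrial share of the gated cells was 10.5% and 10.1% in OVX against 4.27% and 4.13% in WT, Malat1 took 2.58% and 1.90% of UMIs in OVX against 0.327% and 0.582% in WT, and median depths were 529 and 836 UMIs in OVX against 1241 and 870 in WT. Their part in the results was not tested. OVX library 1 held 52259 UMIs, so that a count of 0 allows up to 57.4 CPM there, against 7.34 CPM in OVX library 2 and 4.15 and 15.6 CPM in WT. Without OVX library 2, 14 genes passed, and without OVX library 1, 96, WT library 1, 484, and WT library 2, 392. Of 56 called genes followed through the other settings, 26 lost the call without OVX library 1, 38 of the 44 still tested lost it without OVX library 2, and 30 lost it with the replicate number as a block. The 56 lost fewer calls without WT library 1 (4 of 53) and without WT library 2 (1). In the other edgeR fits of the same design, 29 of the 56 lost the call at least once, most often at a marker threshold of 5 (22 of 38 still tested). These 29 were Cxcl14, Dsc3, Epcam, Fosl2, Fzd6, Gjb2, Gpx1, Id4, Igfbp3, Il33, Krt14, Krt5, Maf, Malat1, Mt1, Mt2, Pdpn, Pgr, Pkm, Pkp1, Rdh12, Rrm1, S100a6, Slc2a1, Slc6a6, Tgfb2, Timp2, Txn1 and Wfdc2.

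The genes of the gates are given as a description. Col17a1 was at 2009 and 1751 CPM in OVX and 2556 and 1716 CPM in WT, and Dst at 2354 and 2096 CPM in OVX and 2124 and 1029 CPM in WT, as the gate selects. Il1r2 was at 19.1 and 19.6 CPM in OVX against 1899 and 2038 CPM in WT. Gap43 was at 0 and 0 CPM in OVX against 458 and 749 CPM in WT. Krt10 was at 95.7 and 44.0 CPM in OVX and 67.8 and 135 CPM in WT, under its limit in both groups.

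Attachment genes outside the gate did not pass. Of 10 hemidesmosome and basement membrane genes tested, 0 were called in either direction (median log2 fold change -0.77). Col7a1 was at 115 and 90.5 CPM in OVX against 273 and 250 CPM in WT (log2 -1.43 ± 0.57; edgeR adjusted p = 0.226), and Itgb1 at 287 and 465 CPM against 859 and 483 CPM in WT (log2 -0.82 ± 0.54; adjusted p = 0.518). Trp63 was at 383 and 306 CPM in OVX and 574 and 478 CPM in WT (log2 -0.68 ± 0.52; adjusted p = 0.593), and of 16 transcription factors only Maf passed, at 1 UMI in OVX and 47 in WT (median of the list 0.04).

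Hormone-linked genes were lower, with 0 of 7 higher and 3 lower in OVX (median -0.64). Igfbp2 was at 19.1 and 31.8 CPM in OVX basal cells against 1542 and 1393 CPM in WT (log2 fold change -5.64 ± 0.67, edgeR adjusted p = 3.07e-05). Pgr was at 19.1 and 24.5 CPM in OVX against 249 and 166 CPM in WT (log2 -3.14 ± 0.68; adjusted p = 0.0100). The call of Pgr was lost in 2 of 10 other edgeR fits of the same design and with the replicate number as a block (edgeR adjusted p = 0.125). Greb1 gave 1 UMI in OVX and 105 in WT, a ratio of levels of 52.9 lower (95% counting interval 9.29 to 2110; adjusted p = 0.00245). All 3 were without overlap. Esr1 was at 134 and 252 CPM in OVX and 127 and 88.4 CPM in WT (log2 0.89 ± 0.56; adjusted p = 0.498). Igfbp3 gave 3 UMIs in OVX and 202 in WT, and with Igfbp2 it made 2 of 5 IGF list genes lower and 0 higher (median -1.17).

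Keratins and differentiation genes were lower in OVX. Krt14 was at 3119 and 2893 CPM in OVX against 20467 and 20009 CPM in WT (log2 -2.80 ± 0.45; edgeR adjusted p = 0.000870), and Krt5 at 1627 and 2739 CPM against 27139 and 7923 CPM in WT (log2 -3.01 ± 0.56; adjusted p = 0.00303). Krt5 and Krt14 were the 2 of 4 basal keratins called (median -1.54). Krt15 had the opposite sign, at 2468 and 1599 CPM in OVX against 637 and 723 CPM in WT, and did not pass (log2 1.52 ± 0.50; adjusted p = 0.124). Of 17 suprabasal and cornified genes tested, 0 were higher and 13 lower in OVX, with a median log2 fold change of -3.40 (-3.21 with genes at 0 UMIs in OVX set to their bound). Krt6a gave 4 UMIs in OVX and 1848 in WT, from levels of 38.3 and 4.89 CPM in OVX against 2086 and 1773 CPM in WT (log2 -7.51 ± 0.83; adjusted p = 2.66e-05). Csta1, a cystatin of the cornified envelope, was at 0 and 0 CPM in OVX against 271 and 224 CPM in WT, at least 40.2-fold lower, and Dsg1b, a desmoglein, was at least 9.24-fold lower from 0 UMIs in OVX. Krtdap was at 19.1 and 48.9 CPM in OVX against 1711 and 2916 CPM in WT (log2 -5.79 ± 0.67). The myeloid-like cells numbered 14 and 18 in OVX and 11 and 7 in WT. They held Krt14 at 258 and 667 CPM in OVX against 10365 and 7739 CPM in WT, Krt5 at 775 and 133 CPM against 6854 and 3049 CPM, and Krtdap at 0 and 0 CPM against 1416 and 2580 CPM. Krt6a in them was at 129 and 0 CPM in OVX and 2832 and 0 CPM in WT. The part of RNA from other cells in the OVX and WT levels was not tested.

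**Figure D5:**
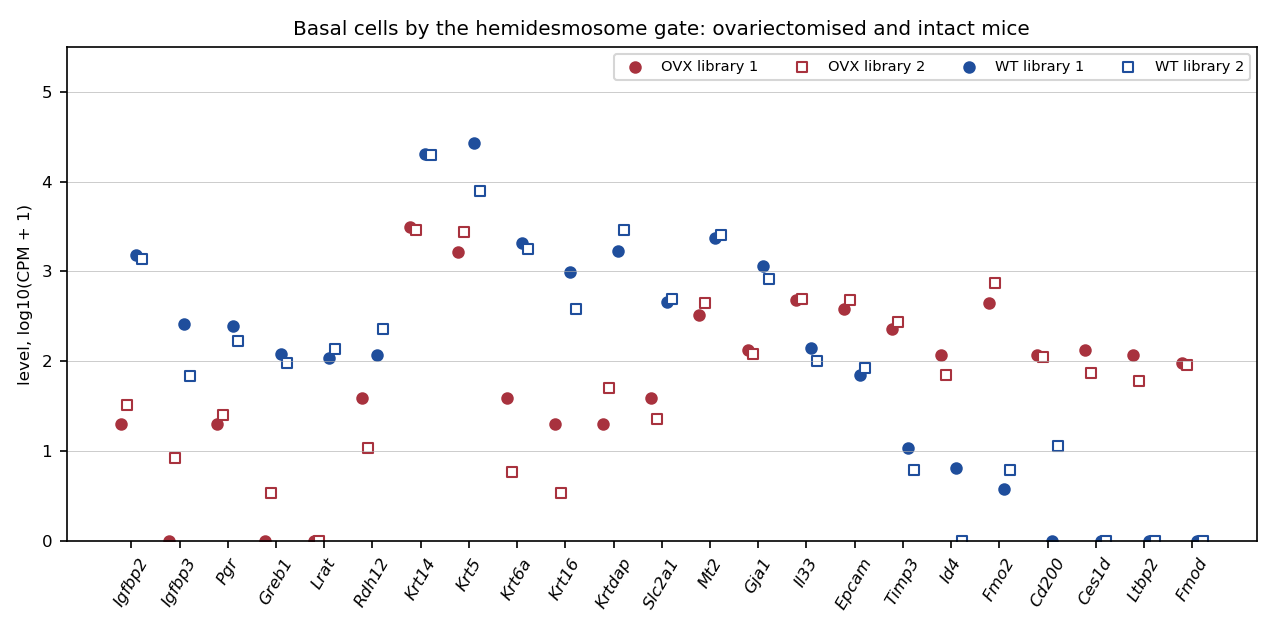
Levels of 23 genes, as log10(CPM + 1), in basal cells by the hemidesmosome gate of OVX (red, left of each pair) and WT (blue) mice, library 1 as filled circles and library 2 as open squares. Red points lie below blue ones for Igfbp2, at 19.1 and 31.8 CPM in OVX against 1542 and 1393 CPM in WT, and above them for Fmo2, at 440 and 739 CPM in OVX against 2.77 and 5.20 CPM in WT.

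Retinoid genes had 0 of 6 higher and 3 lower in OVX (median -2.28). Lrat was at 0 and 0 CPM in OVX against 108 and 135 CPM in WT, at least 17.5-fold lower (edgeR adjusted p = 0.00110). Rdh12 fell by 3.48 on the log2 scale, and lost the call in 4 of 10 other edgeR fits of the same design. Of 12 glycolysis genes 0 were higher and 3 lower (median -1.31), led by Slc2a1 at 38.3 and 22.0 CPM in OVX against 451 and 489 CPM in WT (log2 -4.19 ± 0.68; adjusted p = 0.00101), with Pkm and Slc16a3. Of 18 oxidative stress genes 0 were higher and 4 lower (Mt1, Mt2, Gpx1 and Txn1; median -0.75), with Mt2 at 325 and 445 CPM in OVX against 2360 and 2516 CPM in WT. Txn1 lost the call in 4, Mt1 and Mt2 in 2 each and Gpx1 in 1 of 10 such fits.

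The other lists held few called genes. Gap junction genes Gja1 and Gjb2 were lower, 2 of 8 tight and gap junction genes (median -0.37), with Gja1 at 134 and 120 CPM in OVX against 1139 and 832 CPM in WT. Of 13 desmosome and adherens junction genes 2 were lower (Dsc3 and Pkp1; median -0.28). Dsc3 lost the call in 4 and Pkp1 in 2 of 10 other edgeR fits of the same design. Of 13 G1 genes 2 were lower, Cdkn1a (p21, an inhibitor of CDKs) and Sfn (14-3-3 sigma), with a median of 0.49. Cdkn1a was at 19.1 and 9.78 CPM in OVX against 354 and 307 CPM in WT (log2 -4.82 ± 0.75; edgeR adjusted p = 0.000722), while the cyclin Ccnd2 was at 1512 and 1416 CPM in OVX against 335 and 489 CPM in WT and just missed the threshold (adjusted p = 0.0611). The lists of S phase and mitosis (Rrm1 lower of 14 genes), AP-1 (Fosl2 lower of 8), cholesterol synthesis (1 gene lower of 5) and the Wnt pathway (Fzd6 lower of 12) had 1 call each. The calls of Rrm1, Fzd6 and Fosl2 were lost under 11, 8 and 5 of the other 17 settings. The Notch (4 genes), EGF family (3 genes) and axon growth lists (9 genes) had 0 calls by edgeR. Over all 5334 genes 765 had an unadjusted p under 0.05.

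Among genes higher in OVX, Timp3, an inhibitor of matrix metalloproteinases, was at 230 and 274 CPM in OVX against 9.69 and 5.20 CPM in WT (log2 4.85 ± 0.70; edgeR adjusted p = 0.000361). Timp2 passed as well, and the 2 were the calls among 8 matrix genes (median -0.75). The call of Timp2 was lost in 2 of 5 other edgeR fits of the same design and with the replicate number as a block (edgeR adjusted p = 0.384). Of 13 TGF-beta and BMP genes Id4 and Ltbp2 were higher and Tgfb2 lower (median 1.34). Tgfb2 lost the call in 3 of 10 and Id4 in 1 of 9 other edgeR fits of the same design. Ltbp2, a microfibril protein, was at 115 and 58.7 CPM in OVX and 0 and 0 CPM in WT, at least 19.8-fold higher. Fmod, the collagen-binding proteoglycan fibromodulin, gave 42 UMIs in OVX and 0 in WT (at least 27.8-fold higher), Ces1d, a carboxylesterase, 37 and 0 (at least 24.5-fold) and Naaladl2 45 and 0 (at least 29.8-fold). Fmod was at 95.7 and 90.5 CPM in OVX. The gate limited 3 of the 6 fibroblast markers. The other 3, Dcn, Lum and Pdgfra, summed to 0 and 12.2 CPM in the gated OVX cells against 0 and 0 CPM in WT.

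Fmo2, a flavin monooxygenase, gave 325 UMIs in OVX and 3 in WT, a ratio of levels of 215 (95% counting interval 72.9 to 1048; edgeR adjusted p = 2.66e-05). Efemp1, a fibulin, gave 64 and 3 (ratio 42.3, interval 13.8 to 211), and the surface glycoprotein Cd200 51 and 2 (ratio 50.6, interval 13.3 to 429). Cnksr2 and Nrep gave 27 UMIs each in OVX and 1 each in WT, and Adh1, an alcohol dehydrogenase, 24 and 1. Epcam, an epithelial adhesion molecule, was at 383 and 479 CPM in OVX against 69.2 and 83.2 CPM in WT (log2 2.51 ± 0.57; adjusted p = 0.0145). With Pdpn and Cd200 it made 3 of 13 surface markers higher (median 0.17). Epcam lost the call with every exclusion sum at 0 (edgeR adjusted p = 0.0613), with the replicate number as a block (0.213), without OVX library 1 (0.121) and without OVX library 2 (0.684), and Pdpn lost it under 6 of 14 settings. Il33 was at 478 and 494 CPM in OVX against 138 and 98.8 CPM in WT (log2 1.98 ± 0.54; adjusted p = 0.0486), 1 of 3 interleukin-1 family genes tested (median 0.90), and its call was lost under 12 of the other settings. Csf1 was higher and Cxcl14 lower, the 2 chemokines and cytokines tested (median 0.77). Both lost the call with the replicate number as a block (edgeR adjusted p = 0.542 and 0.0895), and Cxcl14 also at a marker threshold of 5 (0.120).

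Genes that were higher in WT basal than in WT differentiated cells were then looked up in OVX. Of those 500 genes 452 could be tested between OVX and WT, and 44 of them (9.73%) were lower in OVX basal cells and 2 (0.442%), Slc6a6 and Wfdc2, were higher. Over all 5334 genes tested, 1.63% were lower and 1.48% higher. The call of Slc6a6 was lost under 11 of the other settings and that of Wfdc2 under 4. Both comparisons use the same WT libraries, and the 452 genes were picked as high in WT basal cells, so these shares are a description. Igfbp2, Pgr, Greb1, Igfbp3, Lrat, Rdh12, Slc2a1, S100a6, Cxcl14 and Tgfb2 were among the 44. S100a6 was at 1397 and 1059 CPM in OVX basal cells against 5963 and 7840 CPM in WT. Sparc was at 95.7 and 115 CPM in OVX against 389 and 328 CPM in WT (log2 -1.74 ± 0.57; edgeR adjusted p = 0.120), and Jag2 at 38.3 and 78.3 CPM in OVX against 91.3 and 109 CPM in WT (log2 -0.57 ± 0.60; adjusted p = 0.722), neither of which passed. Sparc passed without WT library 1 (adjusted p = 0.0462) and without WT library 2 (adjusted p = 0.00973). Among the genes lower in OVX, Car2 (carbonic anhydrase 2) and the calcium-binding protein S100g gave 0 UMIs in OVX and 116 and 94 in WT, at least 19.5- and 15.8-fold lower.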

How the data were processed

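The deposited matrices give raw UMI counts for each gene and barcode without normalization, per the file headers and values. The submitters' processing notes name Seurat 2 and the build mm10. How reads were aligned, annotated and assigned to retained barcodes is not stated in those notes. Counts were summed per library and class. Sums were tested with edgeR 4.0.16 (TMM, filterByExpr, quasi-likelihood F-test, Benjamini-Hochberg over all genes tested, threshold 0.05; R 4.3.3). The library was a block between basal and differentiated cells, and no covariate entered OVX against WT. Rule and gate genes were left out of the genes tested. DESeq2 1.42.0 was an alternative.

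Genes named were the 12 most raised and 10 most lowered between classes, and 10 each way between OVX and WT, among called genes with the same sign in both libraries and at least 50 CPM in the higher group. Up to 8 genes each way by ratio between WT libraries, 10 by variance over mean, the 15 most abundant and genes of 24 lists could be named too. The basal cells, gates and lists were chosen with earlier results of these data known. Positions come from GENCODE vM21 (94.1% of symbols matched). A few genes are not reported here. The test scripts were tested on simulated data.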

Additional observations from a re-analysis of the deposited data

How the results depend on the processing

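Between basal and differentiated cells 1007 genes passed with edgeR; 496 passed with every exclusion sum at 0, 441 with cells thinned to 500 UMIs, 210 with DESeq2 (881 genes had no adjusted p) and 0 with no replicate block. Fewer genes were tested under the first 2 of these (3382 and 3266). The cause of the changes in the number of calls was not tested for any of them. Leaving out a library left no residual degrees of freedom, so it gave values and no test.

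Between OVX and WT 166 genes passed; 36 passed at a marker threshold of 5, 99 with at most 10% mitochondrial UMIs, 95 with thinned cells, 68 with the rule of the basal cells in all libraries and 103 with DESeq2. Leaving out 1 library gave 14 to 484 calls; a group left with 1 library was assumed to vary like the other. The differences between library 1 and library 2 tended to run in opposite directions in OVX and WT (correlation over genes -0.322). Libraries of the same number held the same number of barcodes, 3000 for library 1 and 2000 for library 2. Whether the replicate numbers mark pairs was not tested. With the number as a block 48 genes passed, and 761 with the crossed pairing, added after seeing the data. No called gene named in the text for either comparison changed sign under these alternatives. Among named genes that had not passed, Dag1 between classes had a log2 fold change of -0.08 with exclusion sums at 0 and Notch1 one of -0.17 at a marker threshold of 5. Leaving out a library gave -0.04 to 0.69 for Cd151, -0.11 to 0.23 for Notch1 and -0.61 to 0.17 for Serpinb2. Ccnd2 and Krt15 passed with exclusion sums at 0 (edgeR adjusted p = 0.0246 and 0.0274). The cause of these changes was not tested.

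The mean share of basal cells in WT, 14.0% ± 1.78 (SD, n = 2), was 17.6%, 8.42% and 5.51% at marker thresholds of 2 and 5 and exclusion sums at 0, and 11.4% in cells thinned before the rule. OVX library 1, with 52259 UMIs, sets the depth limit of the OVX comparison.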

Other observations

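Cells of the WT libraries that carried the basal markers but had 2 or more cycle UMIs were also looked up for basal genes outside the rule, without a test. Lamb3 was at 160 and 150 CPM in these cells against 218 and 232 CPM in the basal cells, lower in both libraries. Itgb4 was at 134 and 258 CPM in them against 135 and 280 CPM in the basal cells, and Trp63 at 565 and 382 CPM against 593 and 498 CPM. Krt15 was at 818 and 831 CPM in them against 533 and 617 CPM in the basal cells, higher in both libraries.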
